A study of Mus musculus with 30 samples.

Results

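The Hox cluster genes encode the homeodomain transcription factors of the 4 mammalian Hox clusters. They were taken from the count table as every row whose symbol is Hox followed by a cluster letter from a to d and a paralog number, which gave 38 of 25400 genes. HoxA held 11 rows on chromosome 6, HoxB 10 on chromosome 11 (chr11:96055630-96229570), HoxC 9 on chromosome 15 (chr15:102751534-102867274) and HoxD 8 on chromosome 2 (chr2:74506367-74603200), all on the mouse build NCBIM37 (mm9). Hoxd4 was not analysed here. The 38 genes were followed across NPCs (neuronal progenitor cells, day 8 of differentiation from ESCs) of 8 lines, with 3 poly(A) RNA-seq libraries for each.

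The study asked which MBD2 and MBD3 variants restore neuronal commitment in ESCs that lack MBD3, a subunit of the chromatin remodelling complex NuRD. All lines derive from HA36CB1 ESCs (129 x C57BL/6). Besides WT and Mbd3 KO there are 6 lines of Mbd3 KO cells that carry a biotin-tagged construct at a recombination site under the strong CAG promoter. The constructs are MBD3a (the full-length MBD3 isoform), MBD3ΔMBD (MBD3 without its MBD domain), MBD2a (the long MBD2 isoform, which carries a glycine-arginine rich stretch), MBD2aΔGR (MBD2a without that stretch), MBD2a with a point mutation in its MBD domain, called R181C in the sample labels and R64C in the deposited columns, and MBD2t (a shorter MBD2 isoform that ends before the coiled-coil domain). The main text of the study gives the point mutant yet another residue number, and R181C is used here as in the labels. The study's methods give 3 independent cell lines as replicates, except for MBD2t, of which 1 clone was used, so the MBD2t spread holds no variation from clone to clone.

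Hox genes lie in the order of their paralog numbers along each cluster. In the embryo they are switched on in about that order, from paralog 1 in the anterior hindbrain to paralog 13 at the tail end, and they give cells their position along the body axis. Retinoic acid, which is part of the NPC protocol, activates the low-numbered genes through its receptors, which bind paired half-sites in and beside the clusters. Hox proteins bind DNA together with the TALE homeodomain proteins of the Pbx, Meis and Pknox families.

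Paired half-sites are shown because the cells received retinoic acid and because 1 lies beside Hoxb1, which moved apart from the other genes of its cluster up to Hoxb9. The search was for 2 half-sites on the same strand, each of them AGGTCA or else GGGTCA or else AGTTCA or else GGTTCA, with 5 bases between, on both strands of each cluster and 20 kb beyond each end. It found 3 in HoxA, 3 in HoxB, 0 in HoxC and 1 in HoxD, and 5 of them are shown with the half-sites in capitals. The names give the cluster and the place in the annotation.
HoxA, intron of Hoxa3, chr6:52125532-52125548, minus strand: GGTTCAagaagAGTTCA
HoxB, intergenic, 17.7 kb downstream of the Hoxb13 start, chr11:96073343-96073359, minus strand: AGGTCAgggaaGGGTCA
HoxB, intron of Hoxb3, chr11:96202550-96202566, plus strand: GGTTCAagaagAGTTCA
HoxB, intergenic, 7.0 kb downstream of the Hoxb1 start, chr11:96234090-96234106, plus strand: GGTTCAtagagAGTTCA
HoxD, intron of Hoxd3, chr2:74579597-74579613, plus strand: GGTTCAagcagAGTTCA
The intronic sites of Hoxa3 and Hoxb3 have the same letters. Of windows as long as the searched regions on the same 4 chromosomes, 38.7% (HoxA length), 51.2% (HoxB length), 40.6% (HoxC length) and 37.1% (HoxD length) held at least 1 such repeat, and 1.98% (HoxA length) and 5.07% (HoxB length) held at least 3. A match is a description of letters, not of a bound site.

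The 250 bases upstream of Hoxb1 are shown because it rose in the MBD2a line while the rest of the HoxB cluster up to Hoxb9 fell. CpG dinucleotides, which the MBD domain of MBD2 binds when methylated, are in capitals.
Hoxb1, chr11:96226816-96227065, plus strand: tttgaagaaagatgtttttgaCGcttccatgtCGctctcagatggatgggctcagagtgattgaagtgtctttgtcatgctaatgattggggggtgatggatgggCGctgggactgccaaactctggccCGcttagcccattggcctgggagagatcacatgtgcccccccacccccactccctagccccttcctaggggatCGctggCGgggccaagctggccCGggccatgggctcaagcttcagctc
Hoxb1 held 7 CpGs in this window, and the 38 Hox genes ranged from 2 to 41 with a median of 11.5, against a median of 7 over all genes. Windows with 10 or more CpGs made up 60.5% of the Hox genes and 41.6% of all genes. The letters TGATNNAT, which Pbx and Hox proteins bind together, were searched on both strands. They occurred in 6 of the 38 windows (15.8%) and in 7.75% of the windows of all genes. Hoxb1, Hoxb3, Hoxb8, Hoxb9 and Hoxc11 were among them.

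Library totals ran from 27993858 to 49392806 counts (median 36797095), so 3 counts corresponded to 0.0607 to 0.115 CPM (counts relative to the TMM-scaled library size), for counting error only. Mbd3 itself was counted at 149 to 156.9 CPM in WT and 34.2 to 73.8 CPM in Mbd3 KO, and at 36.4 to 86.4 CPM in the MBD2 lines, at 167.8 to 198.1 CPM with MBD3a and 422.7 to 495.9 CPM with MBD3ΔMBD. By library, the median deviation of a chromosome's genes from the other libraries of the line lay between -0.09 and 0.11 (log2) over the 4 Hox chromosomes. Of 16582 genes that passed the filter on low counts, 32 were Hox genes. The other 6, Hoxa11, Hoxc11, Hoxc12, Hoxd10, Hoxd11 and Hoxd12, had at most 10 counts in any library and were not tested. Markers of neural progenitors checked the label NPC: their summed level was 1195.4 to 1478.3 CPM in WT and 124.5 to 166.8 CPM in Mbd3 KO. It was 123 to 271.3 CPM with MBD2a and 161.7 to 187.7 CPM with MBD2t. With MBD2aΔGR it was 691.5 to 1376 CPM and with R181C 982.2 to 1405.3 CPM. The sums were 1289.8 to 1383 CPM with MBD3a and 1278.4 to 1476.5 CPM with MBD3ΔMBD. For Mbd3 KO, MBD2a and MBD2t, NPC thus names the day of the protocol, not the marker level.

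In WT NPCs the Hox genes together took 0.373% to 0.572% of all counts. Summed over the 38 genes, the level was 5233.9 ± 1225.1 CPM in WT (SD, n = 3). It was 646.8 ± 360.7 CPM in Mbd3 KO, 1051.1 ± 456 CPM with MBD2a and 654.2 ± 58.3 CPM with MBD2t. The lines with MBD3a, MBD3ΔMBD, R181C and MBD2aΔGR held 4842.6 ± 830.7, 5557 ± 569.7, 4582.9 ± 1207.2 and 3417.5 ± 1264.8 CPM. In bulk RNA, fewer cells of a type and less RNA per cell cannot be told apart.

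**Figure D1:**
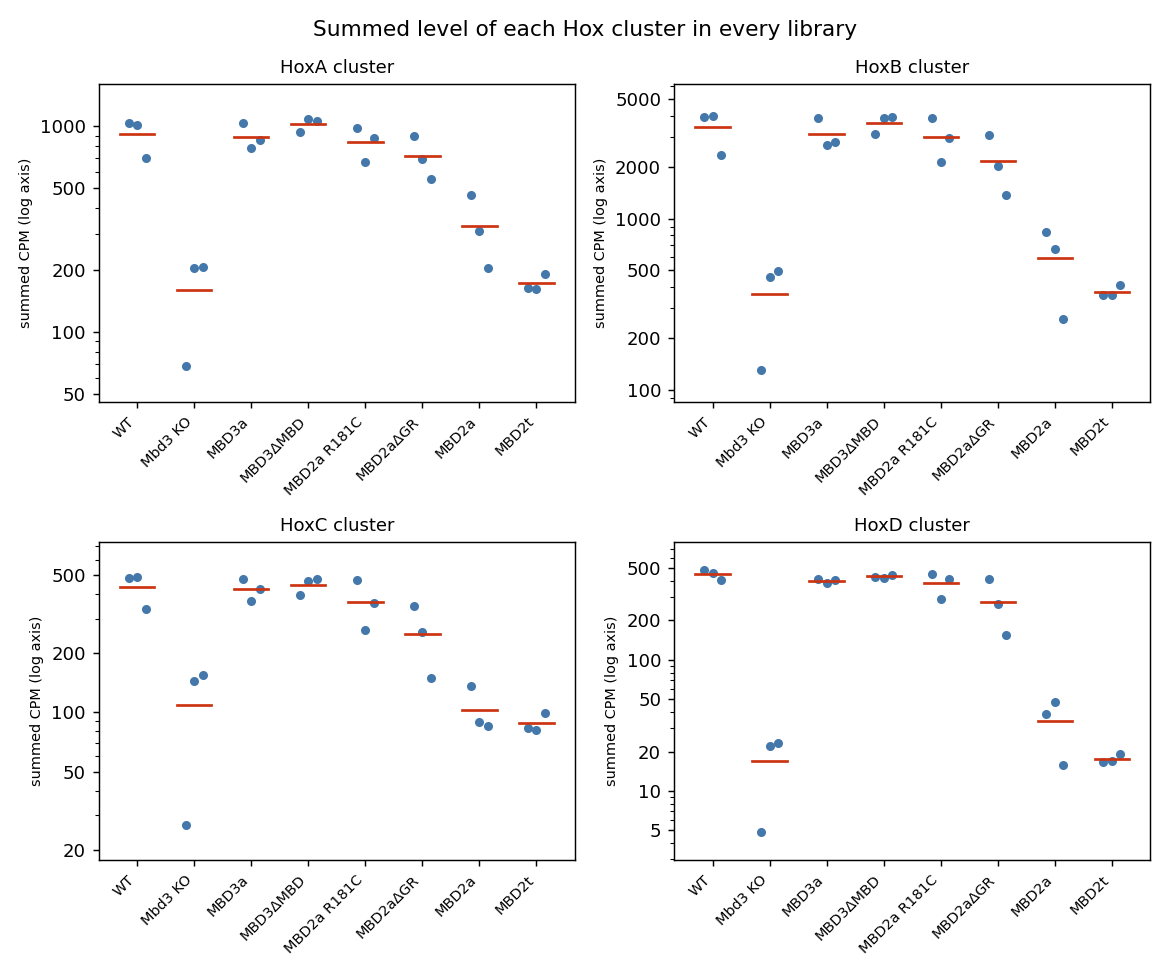
Summed CPM of the genes of each Hox cluster (log axis) in every library of the 8 lines, with points for libraries and red lines for means. In each cluster the Mbd3 KO, MBD2a and MBD2t libraries lie below the lowest WT library, and HoxB sums to 3429.9 CPM in WT against 361.5 CPM in Mbd3 KO.

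HoxB carried most of this level. Its summed CPM was 3429.9 ± 915.4 in WT and 361.5 ± 200 in Mbd3 KO. In HoxA the sums were 916.3 ± 186.9 CPM (WT) and 159.5 ± 79 CPM (Mbd3 KO), and in HoxC 435.8 ± 87.5 and 108.9 ± 71.5 CPM. The smallest share of the WT level remained in HoxD, with 451.9 ± 38.8 CPM in WT and 16.8 ± 10.3 CPM in Mbd3 KO. Nearly all of the HoxD level in WT was Hoxd3, whose row shares 1725 exon bases (29.8% of its exon length) with Hoxd4 on the same strand, so reads of the 2 genes may not be separated.

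Compared per length, which allows levels of different genes to be ranked, the WT order was led by Hoxb9 (310.2 mean RPKM, which is CPM per kilobase of annotated exon), Hoxb8 (279.5 RPKM), Hoxa5 (172.5 RPKM), Hoxb7 (138.7 RPKM) and Hoxb6 (136.1 RPKM). Hoxb9 varied from library to library more than it differed from Hoxb8. In Mbd3 KO it was led by Hoxa5 (26.8 RPKM), Hoxb2 (20 RPKM), Hoxc5 (19.9 RPKM), Hoxb8 (19.3 RPKM) and Hoxb1 (17.8 RPKM), with neighbours closer than their spread. With MBD2a Hoxb1 was at 53 RPKM. Hoxb7 and Hoxb8 share 1069 exon bases on the same strand (26.2% and 40.4% of their exons), so their values are not fully separate, and an antisense transcript covers 49.4% of Hoxb2 exons.

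**Figure D2:**
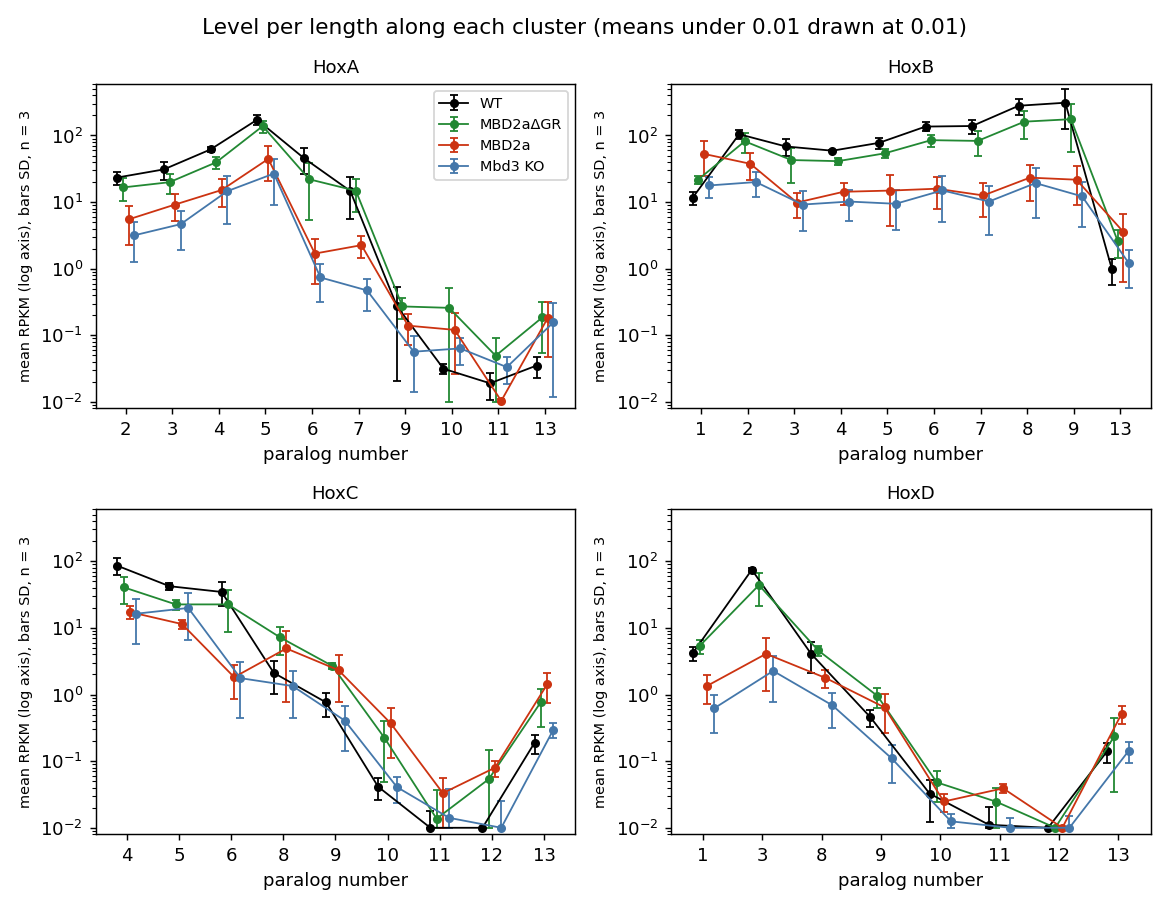
Mean RPKM (log axis, bars SD, n = 3) of Hox genes along the 4 clusters, by paralog number, in WT, Mbd3 KO, MBD2a and MBD2aΔGR. In WT the level falls from paralog 9 to 13 in HoxB and from paralog 5 to 10 in HoxA, and the MBD2a line lies above WT at Hoxb1 and at Hoxc13.

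The comparison of Mbd3 KO with WT asked what loss of MBD3 did to these genes. Of 32 Hox genes tested, 24 were called (adjusted p under 0.05 and a log2 fold change beyond 1 in either direction), 23 lower and 1 higher, while 33.1% of all genes tested were called, 14.1% as lower and 19% as higher. The median log2 fold change was -2.47 over the Hox genes and -0.03 over all genes. The libraries of the 2 lines did not overlap for 23 of the 32, against 62.2% of all genes. Of the 8 paralogs 1 to 3, 7 were lower, of the 14 paralogs 4 to 8, 13, and of the 10 tested of the 16 paralogs 9 to 13, 3 were lower and 1 higher.

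Hoxb9, a thoracic gene and the one with the highest WT level in HoxB, had 1147.9, 985.6 and 262.2 CPM in WT and 8, 41.3 and 44.9 CPM in Mbd3 KO. Library s03 lay far below the other WT libraries, and still above every Mbd3 KO library. It fell by 4.67 on the log2 scale (SE 0.78, adjusted p = 6.69e-05).

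Hoxd3, which patterns the neck vertebrae, had 459.9, 437 and 397.6 CPM in WT and 3.14, 16.8 and 19.3 CPM in Mbd3 KO. It fell by 5.04 on the log2 scale (SE 0.62, adjusted p = 3.44e-06). Hoxa6, a thoracic gene, had the largest fall, from 121.2, 109.7 and 46.7 CPM to 0.515, 1.84 and 2.12 CPM, a log2 fold change of -5.94 (SE 0.73, adjusted p = 3.25e-06). Its neighbour Hoxa7 had 65, 48.1 and 13.9 CPM in WT and 0.572, 1.68 and 1.82 CPM in Mbd3 KO, with a log2 fold change of -4.94 (SE 0.67). An opposite-strand transcript covers 20.4% of Hoxa7 exons, and the strand setting of the counting was not given in the sources used here.

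Hoxc6, another thoracic gene, had 102.1, 109.5 and 47.8 CPM in WT and 0.629, 5.75 and 6.82 CPM in Mbd3 KO (log2 fold change -4.29, SE 0.66). Of the same cluster, Hoxc4 had 266.1, 242.6 and 147.7 CPM in WT and 10.9, 53.4 and 60.3 CPM in Mbd3 KO (-2.39, SE 0.45). In both genes the highest Mbd3 KO library was below the lowest WT library. Hoxa5 (354.8, 352.7 and 263.7 CPM in WT) also fell, to 11.7, 67.1 and 71.9 CPM. Hoxd9 had 1.1, 1.21 and 0.682 CPM in WT and 0.0858, 0.288 and 0.344 CPM in Mbd3 KO, with a log2 fold change of -2.03 (SE 0.56).

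In HoxB the genes from paralog 2 to paralog 8 all fell, with log2 fold changes of -2.39 for Hoxb2, -2.90 for Hoxb3, -2.54 for Hoxb4, -3.04 for Hoxb5, -3.18 for Hoxb6, -3.76 for Hoxb7 and -3.86 for Hoxb8. Except at Hoxb4, each fall was larger than that of the gene before it. Hoxb8, which acts in the thoracic spinal cord, had 820.3, 888.3 and 509 CPM in WT and 10.2, 66.7 and 76.1 CPM in Mbd3 KO. Hoxb4, which acts at the border of hindbrain and spinal cord, had 245.4, 248.8 and 241.5 CPM in WT and 18.7, 51.7 and 56.3 CPM in Mbd3 KO. Both genes had Mbd3 KO libraries well below WT, and their SEs (0.57 and 0.30) are wide beside the steps between neighbours, whose differences were not tested.

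In HoxA, Hoxa2, Hoxa3 and Hoxa4 fell by 2.87, 2.73 and 2.08 on the log2 scale. Hoxa2, which patterns the second branchial arch and the anterior hindbrain, had 71.4, 50 and 48.4 CPM in WT and 2.43, 9.67 and 11 CPM in Mbd3 KO. In HoxD, Hoxd1 and Hoxd8 fell by 2.73 and 2.56. Hoxc8, a thoracic gene, was not called, with 6.47, 6.16 and 1.92 CPM in WT and 0.8, 4.85 and 3.6 CPM in Mbd3 KO (log2 fold change -0.65, SE 0.65, adjusted p = 0.407). It was thus the 1 gene of paralogs 4 to 8 outside the calls, and its groups overlapped.

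Hoxb1, which marks rhombomere 4 of the hindbrain, had 20.2, 30.7 and 29.5 CPM in WT and 24.9, 51.4 and 47.9 CPM in Mbd3 KO. These groups overlapped and Hoxb1 was not called (log2 fold change 0.63, SE 0.35, adjusted p = 0.133). The smallest fall among the called genes was that of Hoxc5 (-1.09, SE 0.38, adjusted p = 0.0197), which was not called without library s04 of Mbd3 KO.

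Of the most posterior genes, Hoxa13 was called higher in Mbd3 KO, with 0.0537, 0.11 and 0.0974 CPM in WT and 0.8, 0.177 and 0.185 CPM in Mbd3 KO, from 28, 8 and 7 counts. The log2 fold change of 2.09 (SE 0.69, adjusted p = 0.0149) rested on library s04, without which it was 1.02 (adjusted p = 0.212). Hoxc9, Hoxc10, Hoxc13 and Hoxd13 were not called, with log2 fold changes between -0.89 and 0.64. Without library s04, 21 Hox genes were called, and Hoxa9, Hoxa13 and Hoxc5 were lost.

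**Figure D3:**
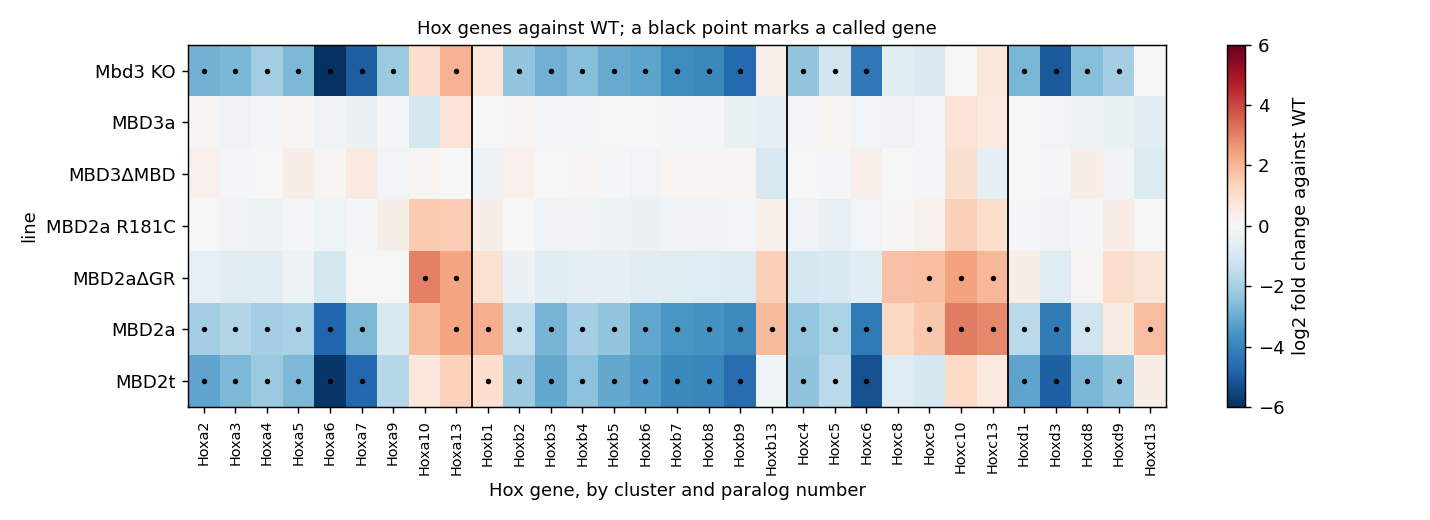
Log2 fold change against WT (colour scale from -6 to 6) of tested Hox genes in 7 lines, ordered by cluster and paralog number, with a black point for each called gene. In Mbd3 KO most points mark lower genes, whereas MBD2a has 20 lower and 7 higher genes and MBD2aΔGR 5 higher genes.

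Library s04 of Mbd3 KO was the lowest of its line in 24 of 24 Hox genes over 1 CPM, at a median log2 distance of -2.07 from the other libraries. It also had the highest summed level of pluripotent cell markers in its line, 1003.2 CPM against 531.3 and 314.4 CPM. In WT, library s03 was the lowest in 19 of 25 genes and had 169.4 CPM of these markers against 22.7 and 37.3 CPM. In 7 of 8 lines the library that was lowest in most Hox genes was the one with the highest pluripotent marker sum (the exception was MBD2t). The part of these markers in the Hox results was not tested.

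The spread inside WT was not even along the clusters. Hoxb4 differed by 1.03 times between the highest and lowest WT library (245.4, 248.8 and 241.5 CPM), while Hoxb9 differed by 4.38 times. In HoxA the ratio was 1.35 for Hoxa5, 2.6 for Hoxa6 and 4.68 for Hoxa7. In HoxD it was 1.16 for Hoxd3 and 3.07 for Hoxd8. Library s03 was the lowest WT library for Hoxa6, Hoxa7, Hoxb9 and Hoxd8. Over the 4 clusters the median ratio was 1.5 for paralogs 1 to 3, 1.7 for paralogs 4 to 8 and 2.37 for the 3 paralogs 9 to 13 over 1 CPM, a description of 3 libraries with no test.

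The lines with MBD3 constructs addressed whether the protein, with or without its MBD domain, brings Hox levels back to those of WT. With MBD3a, 0 Hox genes were called against WT by edgeR and 0 by DESeq2, 0 had an unadjusted p under 0.05 in edgeR, and the median log2 fold change was -0.1. Of all genes 0% were called and 1.72% had an unadjusted p under 0.05. With MBD3ΔMBD, 0 Hox genes were called by either tool and 0 had an unadjusted p under 0.05 (0% and 7.23% of all genes). Log2 fold changes against WT ran from -1.07 to 0.87 with MBD3a and from -0.93 to 0.95 with MBD3ΔMBD, the extremes at low genes. These values do not show that the lines are equal.

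Against Mbd3 KO, MBD3a gave 23 higher and 0 lower Hox genes (31.8% of all genes called, 13.3% as higher and 18.5% as lower) and MBD3ΔMBD 22 higher and 2 lower (35.6% of all genes called, 14.8% and 20.8% by direction). Hoxd3 was at 391.6, 375.6 and 391 CPM with MBD3a and 417.9, 398.4 and 414.8 CPM with MBD3ΔMBD. The 2 lower genes with MBD3ΔMBD were Hoxa13 (log2 fold change -2.08) and Hoxc13 (-1.18), and neither was called without library s04, where the log2 fold changes were -1.02 and -1.09. Hoxc13 also lost its call without s05, s11 or s12, at -1.10, -1.19 and -1.04.

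MBD2a was compared with WT to see how far the long MBD2 isoform restored the program. Of 32 Hox genes tested 27 were called, 20 lower and 7 higher, with 30.1% of all genes called (13.7% lower, 16.5% higher) and a median of -1.82 against -0.01 over all genes. The lower genes were 6 of the 8 paralogs 1 to 3, 13 of the 14 paralogs 4 to 8, and Hoxb9. The 7 higher genes were Hoxb1, at the anterior end of HoxB, and Hoxa13, Hoxb13, Hoxc9, Hoxc10, Hoxc13 and Hoxd13, all of paralogs 9 to 13. Hoxd1, at the anterior end of HoxD, was among the lower genes, at a mean of 2.5 CPM with MBD2a and 7.72 CPM in WT.

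Hoxb1 had 179.8, 138.3 and 51 CPM with MBD2a, against 20.2 to 30.7 CPM in WT and 24.9 to 51.4 CPM in Mbd3 KO. Its log2 fold change against WT was 2.20 (SE 0.37, adjusted p = 8.43e-05), and its lowest MBD2a library exceeded the highest WT library. Against Mbd3 KO it was higher by 1.57 (SE 0.36, adjusted p = 0.0113), and the lowest MBD2a library, s15, lay within the Mbd3 KO range. Without library s13 this was 1.18 (adjusted p = 0.0847).

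Hoxb9 was at 75.6, 73.4 and 18.2 CPM and Hoxd3 at 25.4, 39.9 and 5.63 CPM, which were not called against Mbd3 KO (log2 fold changes 0.83 and 0.85, adjusted p = 0.538 and 0.396). Hoxa6 and Hoxc6 had log2 fold changes of -4.77 and -4.25 against WT.

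Of the 10 tested paralogs 9 to 13, 6 were called higher with MBD2a than in WT, and none of the 6 exceeded 15.2 CPM in an MBD2a library. In a fit of only these 2 lines Hoxc13 and Hoxd13 were still called, and Hoxb13 and Hoxc9 were not. Hoxa13 and Hoxc10 did not pass the filter on low counts in that fit and were not tested there. Hoxc13, a tail-end gene that also acts in hair follicles, had 0.295, 0.55 and 0.56 CPM in WT and 3.31, 1.94 and 5.22 CPM with MBD2a, with no overlap (log2 fold change 2.89, SE 0.48, adjusted p = 7.78e-05). Hoxc10, a lumbar gene, had 0.0537, 0.11 and 0.073 CPM in WT and 1.15, 0.177 and 0.79 CPM with MBD2a (3.12, SE 0.65, adjusted p = 0.000631). Its WT libraries held 2, 4 and 3 counts, so the size of this fold change is imprecise. Hoxd13, which patterns digits and the genital bud, had 0.295, 0.275 and 0.487 CPM in WT and 1.18, 0.943 and 1.71 CPM with MBD2a (1.84, SE 0.51, adjusted p = 0.00525).

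Hoxc9 had 2.42, 2.12 and 1.02 CPM in WT and 9.81, 2.53 and 4.54 CPM with MBD2a (1.60, SE 0.51, adjusted p = 0.0133), and it was not called without library s13 (0.94, adjusted p = 0.131). Hoxb13 was at 1.56, 3.19 and 1.75 CPM in WT and 15.2, 6.3 and 2.37 CPM with MBD2a, so the groups overlapped. Hoxb13 and Hoxa13 had log2 fold changes of 1.88 (adjusted p = 0.0229) and 2.35 (adjusted p = 0.00765), the latter not called without library s15. Hoxb13 lost its call without s01, s03 or s13, each left out alone. Endoderm markers summed to 789.6, 142 and 644.1 CPM with MBD2a, against 179.3 to 256.5 CPM in WT, and trophoblast markers to 318.4, 314.2 and 1136.8 CPM against 80.8 to 167.3 CPM. Their part in these results was not tested.

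**Figure D4:**
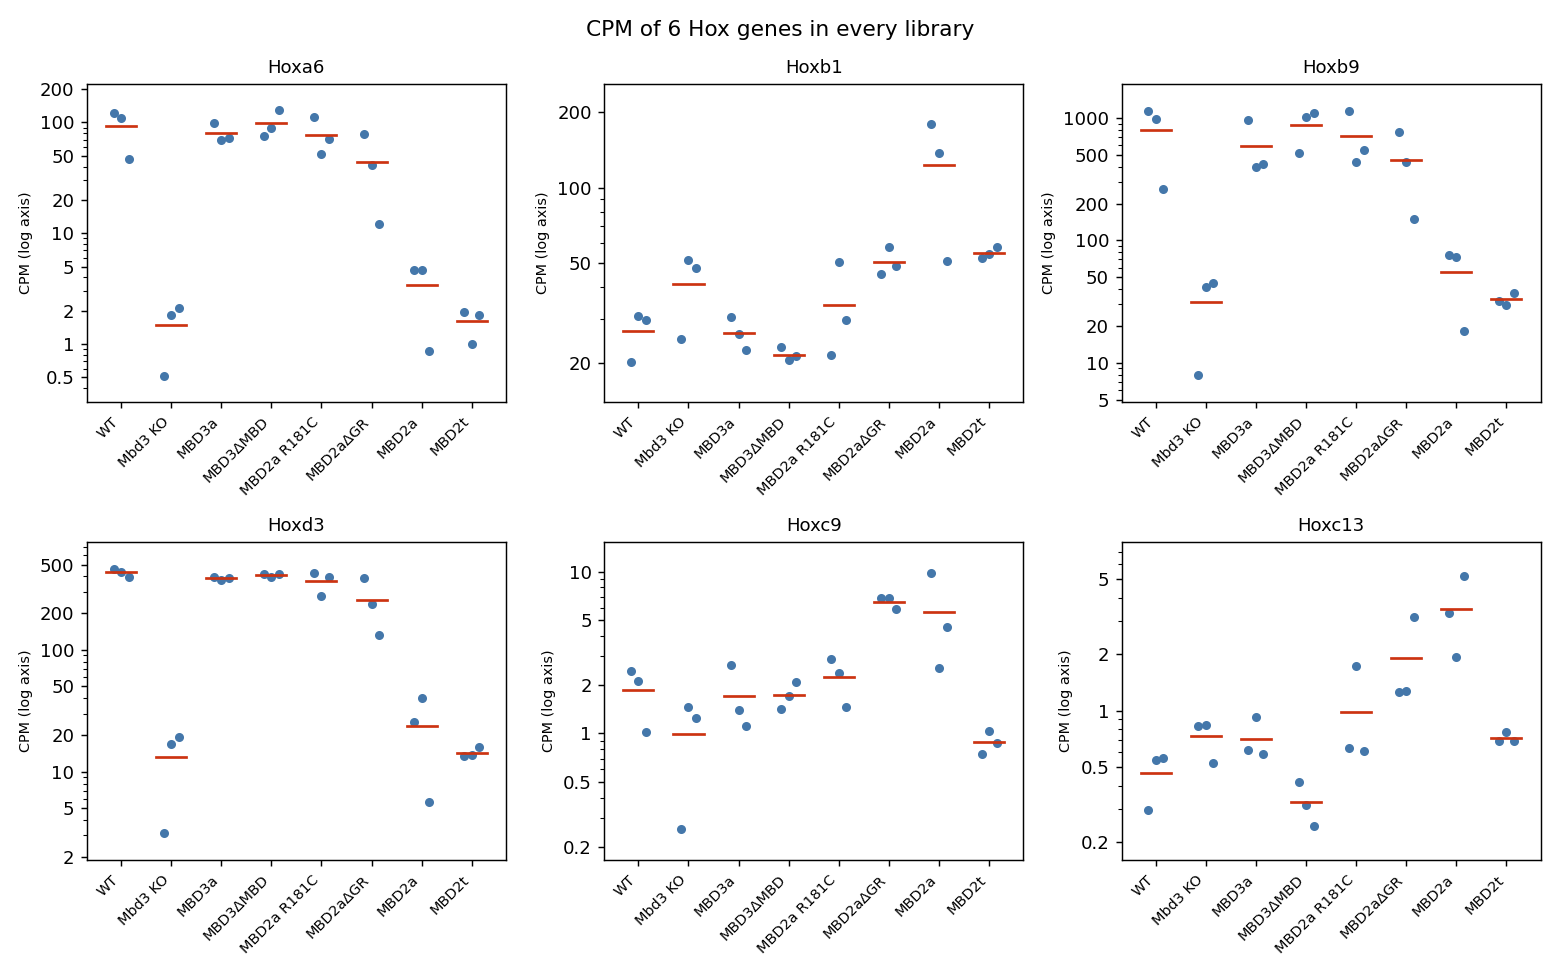
CPM (log axis) of 6 Hox genes in every library of the 8 lines, with red lines for means. Hoxb1 reaches 179.8 CPM with MBD2a against at most 30.7 CPM in WT, and Hoxc13 reaches 5.22 CPM, whereas Hoxb9 and Hoxd3 stay below every WT library.

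MBD2a against Mbd3 KO gave 8 called Hox genes, 8 higher and 0 lower, where 3.9% of all genes were called, 0.706% as higher and 3.19% as lower. They included Hoxc10 (log2 fold change 3.15), Hoxd9 (2.52), Hoxc9 (2.50), Hoxc13 (2.25), Hoxa7 (2.24), Hoxd13 (1.83) and Hoxb1 (1.57). In a fit of only these 2 lines 1 Hox gene was called, and it was none of those named here. Hoxc10 did not pass the filter on low counts in that fit and was not tested there. Without library s13 4 were called. Hoxd13 lost its call without s04, s05, s06, s13, s14 or s15, and Hoxa7 without s04, s05, s06, s13 or s14, each left out alone. MBD2t, in contrast, differed from Mbd3 KO in 0 called Hox genes by edgeR and 0 by DESeq2, with 1 at an unadjusted p under 0.05 (0.00603% and 2.45% of all genes). The MBD2t libraries came from 1 clone, so p-values for MBD2t against Mbd3 KO and WT do not cover differences between clones. Against WT, MBD2t had 22 called, 1 higher and 21 lower (32.6% of all genes called, 17.7% higher and 14.9% lower). The higher gene was Hoxb1, at 52.3, 54.4 and 57.8 CPM (log2 fold change 1.03, SE 0.35, adjusted p = 0.0177), and without library s01 of WT it was 0.86 (adjusted p = 0.0805).

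Removal of the glycine-arginine stretch or the point mutation addressed which part of MBD2a sets its effect. With MBD2aΔGR, 27 Hox genes were higher and 0 lower than in Mbd3 KO (24.4% of all genes called, 9.84% as higher and 14.6% as lower), and 5 were called against WT, 5 higher and 0 lower, where 4.63% of all genes were called, 2.45% higher and 2.18% lower. The 5 were Hoxa10, Hoxa13, Hoxc9, Hoxc10 and Hoxc13. Hoxa10 had 0.107, 0.11 and 0.146 CPM in WT and 0.369, 0.477 and 2.13 CPM with MBD2aΔGR (log2 fold change 3.00, SE 0.85, adjusted p = 0.0402). These came from 4, 4 and 6 counts in WT and 12, 16 and 77 with MBD2aΔGR, so the size of the fold change is imprecise. Hoxc9 had 6.91, 6.85 and 5.87 CPM (1.82, SE 0.52, adjusted p = 0.0398), all above the highest WT library, and Hoxc13 1.26, 1.28 and 3.16 CPM (2.01, SE 0.47, adjusted p = 0.0212).

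The 5 calls changed with the libraries in the fit. Without library s18, s01 or s02, each left out alone, there were 0, and without s03 there was 1. A fit of all lines but MBD2t gave 1, and a fit of only the 2 lines gave 0. In the fit of 2 lines Hoxa13 and Hoxc10 did not pass the filter on low counts and were not tested. Without s18 the log2 fold changes were 1.77 for Hoxa10 (3.00 with it), 1.61 for Hoxa13 (2.36), 1.58 for Hoxc10 (2.41) and 1.43 for Hoxc13 (2.01), while that of Hoxc9 was 1.89 (1.82). Library s18 had 3527.9 CPM of endoderm markers against 381.4 and 282.6 CPM in the other MBD2aΔGR libraries. Its Hoxa10, Hoxa13, Hoxc10 and Hoxc13 values were the highest of its line. Its sums of trophoblast (413.8 CPM), mesoderm (209.9 CPM) and pluripotent markers (369.4 CPM) were also the highest of its line. Those of neural progenitor (691.5 CPM) and neural crest markers (40.3 CPM) were the lowest. The part of these markers was not tested. Paralogs 1 to 8 of MBD2aΔGR had log2 fold changes against WT from -1.07 to 1.77, and none passed in edgeR. The upper end was Hoxc8, which DESeq2 called, and the lower end Hoxc4, which edgeR called without library s16.

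Between the 2 constructs, MBD2a had 20 called Hox genes against MBD2aΔGR, 19 lower and 1 higher (17.6% of all genes, 8.05% lower and 9.56% higher). Hoxa6 differed by -3.71, Hoxc6 by -3.63, Hoxd3 by -3.42 and Hoxb9 by -3.02 (log2). Hoxb9 had 764.4, 440.7 and 150.8 CPM with MBD2aΔGR, all above the 75.6 CPM maximum of MBD2a. Hoxb1 was the 1 higher gene (log2 fold change 1.28, SE 0.35, adjusted p = 0.0097), and it was not called without library s13 (0.91, adjusted p = 0.0622). Without library s15, 14 Hox genes were called, and without s18, 24.

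The point mutant R181C had 0 Hox genes called against WT by edgeR and 0 by DESeq2, with 2 at an unadjusted p under 0.05 (0.00603% and 3.69% of all genes). Against Mbd3 KO 22 were higher and 0 lower (29.8% of all genes, 12.8% as higher and 17% as lower). MBD2a against R181C gave 24 called, 5 higher and 19 lower (26% of all genes, 14% higher and 12% lower). The 5 higher genes were Hoxb1 (1.86), Hoxd13 (1.86), Hoxc13 (1.83), Hoxc10 (1.69) and Hoxc9 (1.33). Hoxc9 was not called without s13, s20 or s21, nor Hoxc10 without s13, s15, s19 or s21, and both lost their calls in a fit of only these 2 lines. A fit without the MBD2t line lost Hoxc9. Hoxb1 in R181C was at 21.5, 50.3 and 29.7 CPM.

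As a share of summed Hox RPKM, paralog 9 genes made 16% ± 7.27 in WT (SD, n = 3), 5.03% ± 0.973 in Mbd3 KO and 6.16% ± 1.25 with MBD2a. Paralog 13 genes made 0.0765% in WT, 0.937% in Mbd3 KO, 0.583% with MBD2t and 1.55% with MBD2a. These shares are relative to the summed Hox level, which was itself lower in the last 3 lines than in WT.

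The genes that work with Hox proteins were counted in lists. Of 9 TALE cofactor genes tested, 7 were lower and 0 higher in Mbd3 KO than in WT, and 6 were lower with MBD2a. Over all genes 14.1% were lower and 19% higher in Mbd3 KO, and 13.7% lower and 16.5% higher with MBD2a, and these shares apply to all the list counts that follow. Pbx3 fell by 2.97, Pknox2 by 2.85 and Meis1 by 1.41 on the log2 scale in Mbd3 KO. With MBD2aΔGR none of the 9 passed, and Pbx3 and Meis1 had log2 fold changes of -0.58 and -0.24 against WT (adjusted p = 0.359 and 0.488). Of the caudal factors that switch on posterior Hox genes in the embryo, Cdx1 and Cdx2 were tested, and both were higher in Mbd3 KO (log2 fold changes 3.07 and 1.90) and with MBD2a (3.59 and 1.87). Both were also higher with MBD2t than in WT (median log2 fold change 2.42). In that line 0 of the 10 tested paralogs 9 to 13 were higher and 2 were lower (17.7% and 14.9% of all genes). With MBD2aΔGR Cdx1 and Cdx2 did not pass (0.91 and 1.47, adjusted p = 0.534 and 0.125). The part of Cdx1 and Cdx2 in the Hox results was not tested.

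Retinoic acid genes moved in both directions. Of 16 tested, 7 were lower and 1 higher in Mbd3 KO than in WT. Rarb, a receptor gene that retinoic acid induces, fell by 2.20 and Rara by 1.62, Crabp1 by 2.19 and Cyp26b1 by 1.55 on the log2 scale, and Aldh1a2, which makes retinoic acid, was higher by 3.12. Cyp26a1, which degrades retinoic acid, had 408.6, 375 and 488.5 CPM in WT and 361, 478.5 and 455.6 CPM in Mbd3 KO. It had 960.8, 826.4 and 762.4 CPM with MBD2a, with no overlap with WT (log2 fold change 1.00, adjusted p = 0.00342).

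Of 6 hindbrain factor genes tested, 4 were lower, Nr2f1, Irx3 and Gbx2 among them, and 1 was higher in Mbd3 KO. Of 12 forebrain and midbrain genes, 4 were lower and 1 higher, and of 6 tail bud genes, 3 lower and 1 higher. The 5 called of 12 stand beside 33.1% called over all genes. Among markers of other cell types, 9 of 9 neural progenitor markers tested were lower in Mbd3 KO, 7 of 8 pluripotent markers and 6 of 6 trophoblast markers were higher, and 1 of 8 endoderm markers was higher. Of 7 mesoderm markers 2 were lower, and of 5 neural crest markers 3 were lower and 1 higher. With MBD2a, 6 of 8 pluripotent, 4 of 6 trophoblast and 3 of 8 endoderm markers were higher than in WT. Mesp1, a mesoderm marker, was the 1 marker at 0 counts in any library. The part of these cell types in the Hox results was not tested.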

How the data were processed

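Poly(A) RNA-seq libraries of day 8 NPCs were analysed, 24 in all, 3 for each of 8 lines. The authors deposited a table of whole-number read counts per gene with no normalization. They prepared directional libraries, trimmed reads with Trim Galore, aligned with STAR to NCBIM37 (mm9) and counted over a GENCODE annotation with qCount of QuasR. The strand setting is not given in the sources used here. Deposited columns were assigned to lines by their group names. They are numbered s01 to s24, without replicate numbers. ChIP samples were not analysed here.

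Genes were filtered with filterByExpr by line (16582 left). After TMM scaling, edgeR 4.0.16 (R 4.3.3) gave quasi-likelihood F tests from 1 fit of all libraries, with line as the factor. The lines share 1 estimate of spread, so the MBD2t libraries, all of 1 clone, enter the p-values of every comparison. Adjusted p-values (Benjamini-Hochberg) run over all genes tested. Called genes have an adjusted p under 0.05 and an absolute log2 fold change over 1. The procedure was tested on simulated data. RPKM used the annotated exon length. Sequences are from mm9. A floor of 3 counts covers counting error only, and an exact permutation test of 3 against 3 libraries cannot go below 0.1.

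Alternatives were RLE factors, library size only, no filter, DESeq2 1.42.0, fits of fewer lines, other thresholds and leaving out each library. Named genes are the highest gene of each cluster (over all libraries and in WT), the largest called rise and fall of each cluster in Mbd3 KO, genes called against WT in lines other than Mbd3 KO, MBD2a and MBD2t, up to 8 genes called in MBD2a or MBD2t against Mbd3 KO, and genes opposite to most of their cluster. Other Hox genes were named for their role or position, after their values were seen. The members and the gene lists (TALE cofactors, caudal, retinoic acid, hindbrain, forebrain and midbrain, tail bud, 6 cell type marker lists, and genes within 200 kb of a cluster) were chosen with earlier results of these data known. Some genes and sequences are not reported here.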

Additional observations from a re-analysis of the deposited data

How the results depend on the processing

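No paired analysis was possible because the deposited columns carry no replicate number. Of the values that moved, the Hox genes called in MBD2aΔGR against WT were 5, and 1 in a fit of all lines but MBD2t, 0 in a fit of only the 2 lines compared, 9 at an unadjusted p under 0.05 with the fold threshold, and 0 to 6 when single libraries were left out. In MBD2a against Mbd3 KO they were 8, and 1 in a fit of only the 2 lines, and 4 to 9 without single libraries (4 without s13). The filter on low counts was run anew for each fit, so some genes near the floor went untested in fits of 2 lines. R181C against WT had 0, and 2 at an unadjusted p. Scaled by library size only, the summed HoxD level was 388.9 CPM with MBD3a (403.7 with TMM) and 407.1 CPM with MBD3ΔMBD (433.6 with TMM). In the other comparisons the count of called Hox genes stayed within 1.5 times its value under every setting tried, and without single libraries it was 21 to 24 for Mbd3 KO against WT, 25 to 27 for MBD2a against WT and 14 to 24 for MBD2a against MBD2aΔGR. Among the named genes, 964 of the values under other settings kept their side of the threshold, 98 lost it and 0 changed direction. The cause of these changes was not tested. The 6 Hox genes that were not tested had at most 10 counts in any library. With no filter Hoxc12 was called in MBD2a against WT, and Hoxd10, at 0 counts in every MBD2t library, was called in MBD2t against WT.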

Other observations

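Genes within 200 kb of a cluster were counted too. Some of them, Hotairm1 and Hoxaas3 among them, lie inside a cluster, so the counts do not describe outside neighbours alone. Of 42 such genes 27 were tested, and in Mbd3 KO against WT 12 were lower and 2 higher. The long noncoding RNA gene Hotairm1 had 65.2, 56.8 and 92.1 CPM in WT and 5.83, 13 and 11.4 CPM in Mbd3 KO, a fall of 2.82 on the log2 scale. The antisense gene Hoxaas3 fell by 4.15. It shares 586 exon bases with Hoxa7 on the opposite strand, and with the strand setting not given, reads of Hoxaas3 and Hoxa7 may not be separated. Outside the clusters, Skap2 near HoxA fell by 1.80, and Ube2z and Ttll6 near HoxB rose by 1.57 and 2.52. Against WT, MBD2a had 11 lower and 4 higher of the 27 genes, MBD2t 11 lower and 3 higher, and MBD2aΔGR 1 higher. Over all genes 33.1% were called in Mbd3 KO, 30.1% with MBD2a, 32.6% with MBD2t and 4.63% with MBD2aΔGR, so 1 of 27 is near the background.

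The higher gene with MBD2aΔGR was Halr1, a noncoding RNA gene 42.8 kb from HoxA. Halr1 had 2.15, 1.93 and 2.26 CPM in WT, 4.06, 3.03 and 2.54 CPM in Mbd3 KO and 10.8, 8.07 and 5.86 CPM with MBD2a, where it rose by 1.96 on the log2 scale against WT (adjusted p = 6.07e-05). With MBD2aΔGR it had 4.05, 5.84 and 5.46 CPM (1.27, adjusted p = 0.0239). Its libraries in both lines lay above every WT library, as did those of Hoxb1. In Mbd3 KO the Halr1 libraries also lay above every WT library, whereas those of Hoxb1 overlapped WT.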
